A study of Mus musculus with 20 samples.

Results

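The comparison is between regulatory T (Treg) cells that lacked *Tet2* and *Tet3* and Treg cells that had both genes, in the spleen and the peripheral lymph nodes (pLNs). Its members are 4 of the 20 sequenced samples of the study: 2 biological replicates of WT Treg cells and 2 of DKO Treg cells. The cells were CD4+YFP+ cells sorted from pooled spleen and pLNs of C57BL/6 mice that were 14 weeks old. All the mice carried *Foxp3* Cre, in which a fusion of YFP and Cre sits in the *Foxp3* locus, so that the recombinase acts in cells that express Foxp3. WT mice had this allele alone, and DKO mice had it together with LoxP-flanked alleles of both enzymes (Tet2/3 fl/fl *Foxp3* Cre). The 2 DKO mice were littermates that differed in the size of the spleen, and the labels do not tell which replicate number belongs to which mouse. CD4+Foxp3- cells of the same tissues (4 samples) and Treg cells of the mesenteric lymph nodes (mLN, 6 samples) are used here only for comparison.

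TET proteins oxidize 5-methylcytosine in DNA, which is a step towards the removal of the methyl mark and keeps many enhancers accessible. Treg cells restrain other lymphocytes, and their identity depends on the transcription factor Foxp3, whose intronic enhancer must be demethylated for expression to be stable through cell division. A part of the Treg population takes on effector programs that also mark tissue Treg cells, among them the receptor for interleukin-33.

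Each library held between 13525932 and 15253141 counted reads, and values are given as CPM, counts scaled by library size and TMM factors, in the order replicate 1, replicate 2. Fold changes are log2 values of DKO over WT from edgeR's quasi-likelihood test, with their standard errors and adjusted p-values, n = 2 per group. The 10 T cell markers tested, among them *Cd3e*, *Lck* and *Lat*, were between 255 and 1150.3 CPM in every library, and 0 of them were called. Of the 5 Treg markers, 0 were called by edgeR and 1, *Foxp3*, by DESeq2's Wald test, and the values of *Foxp3* and *Il2ra* are given with the Treg identity genes. *Ctla4* was at 269.9 and 260.3 CPM in WT versus 231 and 234 CPM in DKO, and *Ikzf2* at 425 and 331 CPM in WT versus 324 and 304 CPM in DKO. Of the sex-linked genes, *Xist* was called higher and did not hold, at 41.3 and 31 CPM in WT versus 126 and 57.6 CPM in DKO (log2 fold change 1.34 ± 0.29, adjusted p = 0.0448). Counts of the targeted genes do not test the genotype, since a gene's count includes exons outside the deleted part: *Tet2* was at 2.08 and 1.11 CPM in WT versus 8.01 and 2.05 CPM in DKO. The level of *Tet3* was 31 and 30.6 CPM in WT versus 61 and 38.1 CPM in DKO, and neither gene was lower in DKO. A gene is termed called when its adjusted p by edgeR was at most 0.05 and its change at least 1.5-fold, and calls by DESeq2's Wald test are named as such. It is termed held when both DKO libraries lay at least 1.5-fold beyond both WT libraries, with at least 1 CPM in each library of the higher group. This is a description with no test.

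More genes rose than fell in DKO Treg cells, and the genes that rose had the lower median level in WT. Of 16357 genes tested, 186 (1.14%) were called higher and 99 (0.605%) were called lower. The called genes that rose had a median level of 1.95 CPM in WT versus 11.8 CPM in DKO, and their median log2 fold change was 2.69. Those that fell had a median of 35.5 CPM in WT versus 13.3 CPM in DKO, and their median log2 fold change was -1.42. A mean under 1 CPM in WT was found for 75 of the 186, and 36 had fewer than 3 counts in each WT library. At least 4-fold changes numbered 119 among the risers and 30 among the fallers.

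By the description of held genes, 739 (4.52%) lay higher and 304 (1.86%) lower, so that 70.9% of them were higher. With the deposited TPM values, which also divide by gene length, in place of CPM, 1131 genes held, of which 87.4% were higher, and the median log2 ratio of genes at 1 CPM or more was 0.3 on the TPM scale and close to 0 on the CPM scale. Directions given here are relative to the CPM scale, and 0 of the 285 called genes changed direction on the TPM scale. Of the called genes, 164 of 186 risers and 93 of 99 fallers also held in both replicates. Without DKO replicate 1 the test called 11 genes, and without either WT replicate it called 4, while without DKO replicate 2 it called 1696. With the trend with gene length removed, 239 genes were called higher and 215 lower, against 186 and 99. Only *Car2*, *Pcsk1*, *H2-Aa* and *Il1rl1* of the 285 passed in each of the 12 alternatives run, and all 285 kept their direction wherever they were tested.

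**Figure D1:**
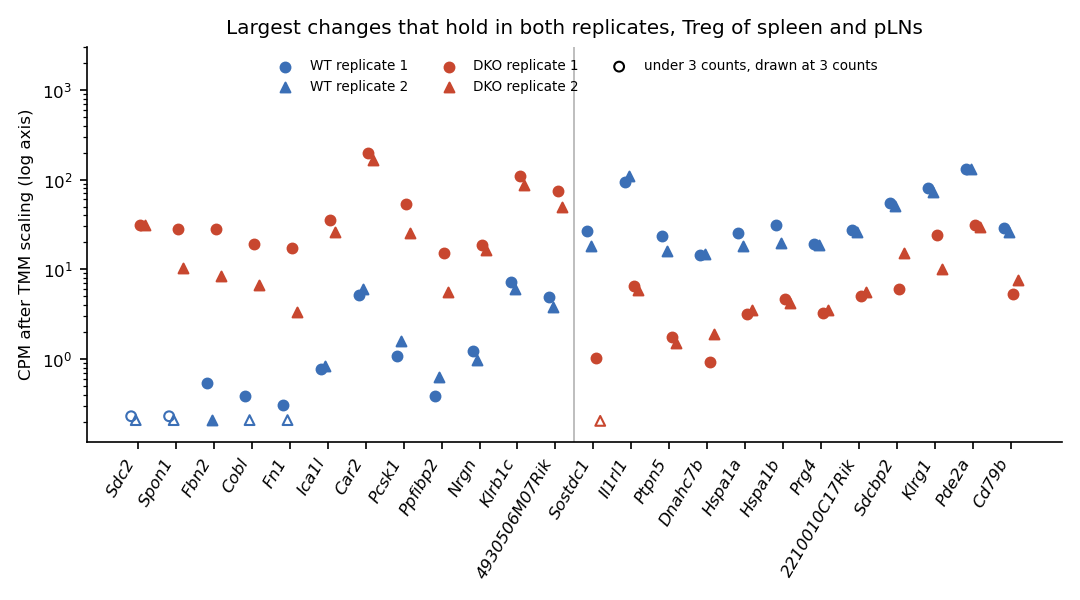
Level of each gene in each library, in CPM on a log axis, for the 12 genes with the largest rise and the 12 with the largest fall. They were taken from genes called and held in both replicates, with a mean of 10 CPM or more in the higher group. Blue symbols are WT and red symbols DKO, circles are replicate 1 and triangles replicate 2, and open symbols are libraries under 3 counts, drawn at 3 counts. Red and blue symbols do not overlap for any of the 24 genes, which the choice of genes fixes.

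Among the 12 largest rises, *Sdc2* and *Spon1* come first and are described with the matrix genes. *Car2*, which encodes a carbonic anhydrase, was at 5.23 and 5.99 CPM in WT versus 199 and 166 CPM in DKO (log2 fold change 5.02 ± 0.41, adjusted p = 0.000138). Both DKO libraries were close to each other and above 100 CPM. *Penk* encodes proenkephalin, the precursor of opioid peptides, and it was at 136 and 106 CPM in WT versus 1674 and 1678 CPM in DKO (log2 fold change 3.79 ± 0.39, adjusted p = 0.00109). The 2 DKO values were nearly equal, and *Penk*, a member of the effector and tissue Treg list that is not one of the 12, was the called riser with the highest level. *Pcsk1* encodes a convertase that cuts peptide precursors, and it was at 1.08 and 1.6 CPM in WT versus 53.2 and 25.5 CPM in DKO (log2 fold change 4.86 ± 0.39, adjusted p = 0.000138). DKO replicate 1 was about 2 times as high as replicate 2, and both lay above the WT libraries.

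The log2 fold changes of 6 other risers ranged from 2.62 to 5.61. *Nrn1*, which encodes the small membrane-anchored protein neuritin, was at 96.9 and 90.6 CPM in WT versus 519.7 and 630.4 CPM in DKO (log2 fold change 2.62 ± 0.48, adjusted p = 0.0211). It was among the 17 risers with a mean of 100 CPM or more in DKO, and replicate 2 was the higher one. *Nrgn* encodes neurogranin, a calmodulin-binding protein, and was at 1.23 and 0.974 CPM in WT versus 18.7 and 16.6 CPM in DKO (log2 fold change 4.0 ± 0.58, adjusted p = 0.00645). *Ica1l*, a relative of the islet cell autoantigen gene *Ica1*, was at 0.769 and 0.835 CPM in WT versus 35.7 and 25.9 CPM in DKO (log2 fold change 5.25 ± 0.64, adjusted p = 0.0026). In each of these genes the lowest DKO library was over 4-fold above the highest WT library. *Cobl*, which encodes an actin nucleator, was at 0.384 and 0.139 CPM in WT versus 19.2 and 6.69 CPM in DKO (log2 fold change 5.61 ± 0.69, adjusted p = 0.0026), and its 2 DKO libraries differed more from each other than those of *Nrgn*. *Ppfibp2*, which encodes liprin beta 2, was at 0.384 and 0.626 CPM in WT versus 15.1 and 5.6 CPM in DKO (log2 fold change 4.33 ± 0.66, adjusted p = 0.00939). The transcript *4930506M07Rik* was at 4.92 and 3.83 CPM in WT versus 75.2 and 49 CPM in DKO (log2 fold change 3.83 ± 0.8, adjusted p = 0.039).

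Several genes of antigen presentation by class II molecules rose. Class II molecules present peptides from endosomes to CD4+ T cells and are made mainly by professional antigen-presenting cells. Of the 14 class II genes tested, 4 were called higher and 0 lower, against 1.14% and 0.605% of all genes. The median log2 ratio of the 14 genes to the WT mean was 0.84 in DKO replicate 1 and 0.81 in replicate 2, beside -0.03 and about 0 for the 11166 genes at 1 CPM or more. Among the 15 class I genes, 0 were called and 0 held, and the medians were -0.63 and -0.29. The class I and class II lists were not tested against each other.

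The promoters of a pair of the class II risers are shown because the Y box of class II promoters is a CCAAT sequence. The 250 bases before the RefSeq start (GRCm38.p6) hold CCAAT, read on either strand and printed in capitals, once in *H2-Aa* (chr17:34287824-34288073, minus strand), 48 bases before the start, and 2 times in *H2-Eb1* (chr17:34305617-34305866, plus strand), 59 and 35 bases before the start. *H2-Ab1* is named only.
H2-Aa: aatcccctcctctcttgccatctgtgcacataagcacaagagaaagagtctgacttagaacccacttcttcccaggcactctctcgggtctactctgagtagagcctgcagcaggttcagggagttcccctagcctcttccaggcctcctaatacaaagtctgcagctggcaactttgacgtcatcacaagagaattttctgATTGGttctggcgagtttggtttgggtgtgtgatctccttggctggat
H2-Eb1: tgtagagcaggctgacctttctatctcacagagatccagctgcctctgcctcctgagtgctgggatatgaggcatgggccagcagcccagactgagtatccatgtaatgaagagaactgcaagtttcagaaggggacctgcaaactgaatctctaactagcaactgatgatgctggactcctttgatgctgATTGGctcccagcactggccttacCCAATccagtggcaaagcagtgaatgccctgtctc
CCAAT was found in 33.8% of all 32851 promoters of this length. The H2-Aa stretch holds 3 CpG and the H2-Eb1 stretch 0. Over the called genes with a single listed promoter, the median number of CpG was 13 for risers (n = 113) and 11.5 for fallers (n = 52), beside 14 for all genes tested (n = 10193) and 17 for genes at 1 CPM or more (n = 7087).

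The chains of the class II molecule moved together. *H2-Aa*, the alpha chain of I-A, was at 4.07 and 4.45 CPM in WT versus 36.1 and 26.8 CPM in DKO (log2 fold change 2.88 ± 0.23, adjusted p = 0.000138). *H2-Eb1*, the beta chain of I-E, was at 3.69 and 2.85 CPM in WT versus 24.7 and 17.1 CPM in DKO (log2 fold change 2.68 ± 0.27, adjusted p = 0.00109). *H2-Ab1*, the beta chain of I-A, was at 3 and 3.13 CPM in WT versus 24.8 and 16.8 CPM in DKO (log2 fold change 2.76 ± 0.29, adjusted p = 0.00126). In all 3 genes the DKO libraries were several times above the WT libraries and replicate 1 was the higher of the pair. The invariant chain *Cd74*, which escorts class II molecules to endosomes, started from a much higher level, 159.6 and 139 CPM in WT versus 379 and 247 CPM in DKO (log2 fold change 1.07 ± 0.21, adjusted p = 0.031). The accessory gene *H2-DMb1*, part of the peptide editor, held but was not called, at 1.15 and 1.46 CPM in WT versus 4.18 and 3.89 CPM in DKO (adjusted p = 0.077), while its partner *H2-DMa* lay lower, at 48.8 and 51.2 CPM in WT versus 18.9 and 30.7 CPM in DKO (adjusted p = 0.0775).

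Markers of other cells that carry class II were mixed. The dendritic cell gene *Cd209a* had 0 counts in the 4 libraries, and the monocyte gene *Cd14* was at or under 0.21 CPM. Among the 25 myeloid markers tested, 2 were called (*Itgam* and *Csf1r*, both higher), 21 had a positive log2 fold change, and 12 were at 1 CPM or more. *Ctss*, a protease of endosomes, had the highest level of them, at 629.6 and 638 CPM in WT versus 304 and 454 CPM in DKO (adjusted p = 0.127). *Cybb*, a subunit of the phagocyte oxidase, held higher without being called, at 128 and 102 CPM in WT versus 249 and 225 CPM in DKO (adjusted p = 0.168). The summed level of the list was 827 and 829.7 CPM in WT versus 713 and 767 CPM in DKO, and without *Ctss* the other 24 markers summed to 198 and 191 CPM in WT versus 409 and 313 CPM in DKO. The fitted median log2 fold change of the 25 was 1.89, and it was 0.86 without DKO replicate 1 and 2.55 without DKO replicate 2. Among the 14 B cell markers, *Ms4a1* rose and *Cd79b* fell, 10 had a positive log2 fold change, and 6 were at 1 CPM or more. *Cd22*, an inhibitory receptor of B cells, was at 7.69 and 5.85 CPM in WT versus 43.8 and 10.8 CPM in DKO (adjusted p = 0.0702, and 0.0189 with DESeq2's Wald test). The sum of the B cell markers was 44.0 and 40.9 CPM in WT versus 63.7 and 28.4 CPM in DKO, and 36.4 and 35 CPM versus 19.8 and 17.6 CPM without *Cd22*. Their fitted median log2 fold change was 1.74, and it was 0.71 without DKO replicate 1 and 2.11 without DKO replicate 2. Of 11 neutrophil, 4 erythroid, 5 platelet and 11 stromal markers tested, 1 was called, the neutrophil gene *Mpo*, at least 9.71-fold higher against WT libraries with 0 counts, and it did not hold. Of the neutrophil markers 9 had a positive log2 fold change, with a fitted median of 4.19, and of 0 without DKO replicate 1. They summed to 1.38 and 2.02 CPM in WT versus 9.44 and 2.73 CPM in DKO. All 4 erythroid markers were positive as well, and 0 of them were at 1 CPM or more. Of the CD8 genes, *Cd8a* was at or under 0.38 CPM and *Cd8b1* at 19.3 and 17.1 CPM in WT versus 6.64 and 9.28 CPM in DKO (adjusted p = 0.0834). In bulk libraries fewer cells of a type and less RNA per cell cannot be told apart, and the part of other cells in the class II values was not tested.

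Several cytokine receptors fell, among them a neighbouring pair of the interleukin-1 receptor family. Of 36 cytokine receptor genes, 5 were called lower and 1 higher, 7 held lower and 3 higher, and the medians were -0.36 in DKO replicate 1 and -0.25 in replicate 2. On the TPM scale the median of the 34 members at 1 CPM or more was 0.03 and that of all genes at 1 CPM or more was 0.3, so the list lay below the genes as a whole on both scales. *Il18r1*, the binding chain of the interleukin-18 receptor, was at 89.5 and 92.2 CPM in WT versus 22.8 and 22.6 CPM in DKO (log2 fold change -2.0 ± 0.28, adjusted p = 0.00502). The replicates of each group were nearly equal. It lies on chromosome 1 (40522397 to 40557699, NCBIM37) 137 bases beyond the end of *Il1rl1* (40486415 to 40522260), which encodes the interleukin-33 receptor ST2 and was at 93.5 and 111 CPM in WT versus 6.58 and 5.87 CPM in DKO (log2 fold change -4.03 ± 0.27, adjusted p = 7.5e-05).

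The flanking genes of that receptor cluster did not pass the test. *Il1rl2*, the interleukin-36 receptor, was at 1.69 and 1.6 CPM in WT versus 1.6 and 1.5 CPM in DKO (log2 fold change -0.08, adjusted p = 0.934). *Il18rap*, the accessory chain of the interleukin-18 receptor, was at 16.4 and 14.9 CPM in WT versus 11.1 and 8.53 CPM in DKO (log2 fold change -0.67, adjusted p = 0.316). Both DKO values of *Il18rap* lay below both WT values without reaching 1.5-fold in each pair.

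Receptors that use other chains fell as well. *Il13ra1*, a chain of the type II interleukin-4 receptor and of the interleukin-13 receptor, was at 10.5 and 8.42 CPM in WT versus 0.859 and 0.341 CPM in DKO (log2 fold change -3.94 ± 0.49, adjusted p = 0.0026). Both DKO libraries were under 1 CPM. *Il9r* was at 18.1 and 18.7 CPM in WT versus 4.18 and 6.28 CPM in DKO (log2 fold change -1.82 ± 0.32, adjusted p = 0.0181). *Tgfbr3*, the co-receptor betaglycan, was at 18.7 and 20.5 CPM in WT versus 8.19 and 8.06 CPM in DKO (log2 fold change -1.27 ± 0.24, adjusted p = 0.0222). In neither gene did the groups overlap, and the DKO replicates differed by less than the groups did, which the choice of called genes favours. The member called higher was *Csf1r*, the receptor of macrophage colony-stimulating factor, with 1 and 1 counts in WT and 52 and 13 counts in DKO, a ratio of 27.7 (95% interval 7.37 to 234, counting error only), and it did not hold. The receptor of interleukin-7, *Il7r*, held lower but was not called, at 174 and 181 CPM in WT versus 104 and 103 CPM in DKO (adjusted p = 0.251).

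Of 25 cytotoxicity and natural killer (NK) receptor genes, 5 were called higher (*Klrb1c*, *Ncr1*, *Klrc1*, *Sh2d1b1* and *Gzma*) and 0 lower, and the medians were 0.65 and 0.35. *Klrb1c*, which encodes the NK1.1 receptor, was at 7.3 and 6.06 CPM in WT versus 110.1 and 86.4 CPM in DKO (log2 fold change 3.88 ± 0.37, adjusted p = 0.000612). Its neighbour *Klrb1b*, an inhibitory receptor of the same family that is not on the list and whose reads may be shared with close copies, had 0 and 1 counts in WT and 58 and 41 in DKO, a ratio of 84.4 (95% interval 14.8 to 3366). *Ncr1*, the activating receptor NKp46, had 1 and 1 counts in WT against 44 and 33 in DKO, a ratio of 32.8 (95% interval 8.78 to 276). *Sh2d1b1*, an adaptor of SLAM receptors, had 0 and 1 counts in WT against 84 and 87 in DKO, a ratio of 146 (95% interval 25.8 to 5790), and *Klrc1*, which encodes NKG2A, was at least 3.64-fold higher against the limit of 3 counts over WT libraries with 0 counts, and did not hold.

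*Gzma*, the serine protease granzyme A, was at 1.23 and 1.74 CPM in WT versus 11.7 and 5.46 CPM in DKO (log2 fold change 2.53 ± 0.48, adjusted p = 0.0259). *Nkg7*, a protein of cytotoxic granules, held without being called, at 53 and 52.5 CPM in WT versus 135 and 115 CPM in DKO (adjusted p = 0.0655). Of the 8 NK cell markers tested, 3 were called higher (*Klrb1c*, *Ncr1* and *Gzma*), the sum was 11.2 and 10.6 CPM in WT versus 136 and 96.9 CPM in DKO, and *Klrb1c* made up most of it. Without *Klrb1c* the other 7 markers summed to 3.92 and 4.52 CPM in WT versus 26.4 and 10.5 CPM in DKO. All 8 NK cell markers had a positive log2 fold change, with a fitted median of 2.37, and *Eomes*, a transcription factor of NK cells, was at 2.61 and 2.65 CPM in WT versus 12 and 2.53 CPM in DKO (adjusted p = 0.214). The Ly49 receptor genes *Klra3*, *Klra7*, *Klra8* and *Klra9*, which NK cells express, were at or under 0.14 CPM in each of the 4 libraries. These Ly49 genes were chosen after their values were seen, and the part of NK cells in the values of this list was not tested.

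Adhesion and matrix genes included some of the widest changes. Of 39 matrix genes tested, 4 were called higher and 2 lower, 7 held higher and 2 lower, and 21 were at 1 CPM or more. The syndecan *Sdc2*, a proteoglycan of the cell surface, had 0 counts in both WT libraries and 550.0 and 461 counts in DKO, at least 143-fold higher. *Spon1*, a secreted matrix protein, had 0 counts in WT and 489 and 153 in DKO, at least 87.5-fold higher. Fibronectin, *Fn1*, was at 0.307 and 0.139 CPM in WT versus 17.1 and 3.35 CPM in DKO (log2 fold change 5.49 ± 0.95, adjusted p = 0.017), and replicate 1 was the higher DKO library by over 2-fold. The fibrillin gene *Fbn2* was at 0.538 and 0.209 CPM in WT versus 28.3 and 8.33 CPM in DKO (log2 fold change 5.61 ± 0.88, adjusted p = 0.0109), with the same order of the DKO libraries. *Ecm1*, a secreted glycoprotein, went the other way, at 151 and 123 CPM in WT versus 44.6 and 58.4 CPM in DKO (log2 fold change -1.41 ± 0.19, adjusted p = 0.00442), as did the lubricin gene *Prg4*, at 19.1 and 18.7 CPM in WT versus 3.26 and 3.55 CPM in DKO (log2 fold change -2.47 ± 0.32, adjusted p = 0.0031).

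Of 25 integrin genes, 1 rose and 1 fell. *Itgam*, the alpha chain of Mac-1 (CD11b), was at 0.999 and 1.32 CPM in WT versus 15.5 and 6.49 CPM in DKO (log2 fold change 3.23 ± 0.46, adjusted p = 0.00572). *Itga6*, which pairs to form laminin receptors, was at 161 and 164 CPM in WT versus 47.5 and 64.2 CPM in DKO (log2 fold change -1.54 ± 0.31, adjusted p = 0.033). The fall of *Itga6* was from a level over 100 CPM and the rise of *Itgam* from about 1 CPM. Among 21 chemokine receptors, 1 was called, *Cx3cr1*, the fractalkine receptor, at 0.231 and 0.905 CPM in WT versus 8.53 and 8.47 CPM in DKO (log2 fold change 3.86 ± 0.51, adjusted p = 0.00361). The DKO replicates agreed closely. Another 5 chemokine receptors held lower without being called, among them *Cxcr3* at 220.0 and 221 CPM in WT versus 101 and 128 CPM in DKO (adjusted p = 0.0939) and *Cxcr6* at 34 and 34.1 CPM in WT versus 17.6 and 17.1 CPM in DKO (adjusted p = 0.196).

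Of 34 cytokine and chemokine genes tested, 3 were called higher, all of them chemokines, and 0 lower (3 and 1 by DESeq2's Wald test), while 6 held higher and 2 lower. *Ccl3* and *Ccl4*, neighbours on chromosome 11 whose products attract monocytes and T cells, were at 0.154 and 0.418 CPM in WT versus 16.7 and 2.8 CPM in DKO (log2 fold change 5.03 ± 0.82, adjusted p = 0.0131) and at 1.69 and 2.16 CPM in WT versus 31.3 and 7.92 CPM in DKO (log2 fold change 3.34 ± 0.62, adjusted p = 0.0221). In both genes DKO replicate 1 was well above replicate 2, and both were above WT. *Xcl1*, the ligand of a dendritic cell receptor, was at 3.84 and 1.53 CPM in WT versus 7.33 and 11.5 CPM in DKO (log2 fold change 1.81 ± 0.39, adjusted p = 0.0424), with replicate 2 the higher. Interferon gamma, *Ifng*, lay lower and was not called, at 4.15 and 6.13 CPM in WT versus 1.14 and 1.91 CPM in DKO (log2 fold change -1.76, adjusted p = 0.0578). Osteopontin, *Spp1*, lay higher and was not called, at 0.999 and 1.32 CPM in WT versus 14.1 and 14.4 CPM in DKO (adjusted p = 0.113).

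In the tumour necrosis factor superfamily, 2 of 35 genes rose and 1 fell. *Tnfsf4*, which encodes the ligand of OX40, was at 2 and 2.16 CPM in WT versus 5.84 and 9.63 CPM in DKO (log2 fold change 1.89 ± 0.39, adjusted p = 0.0359). *Tnfsf13b*, the B cell factor BAFF, was at 4 and 3.76 CPM in WT versus 1.03 and 0.819 CPM in DKO (log2 fold change -2.05 ± 0.46, adjusted p = 0.0459). *Tnfrsf21*, death receptor 6, was at 0.307 and 0.209 CPM in WT versus 2.92 and 1.3 CPM in DKO (log2 fold change 3.0 ± 0.68, adjusted p = 0.0478). For all 3 genes the higher group stayed under 10 CPM. Among 25 semaphorin, plexin and neuropilin genes, the semaphorin *Sema4f* was called higher, at 21.2 and 20.2 CPM in WT versus 32.5 and 34.1 CPM in DKO (log2 fold change 0.68 ± 0.15, adjusted p = 0.0432), and *Nrp1* lower, and 6 genes held higher and 2 lower.

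Of 25 Treg identity and suppressor genes, 1 was called higher (*Nrn1*) and 1 lower (*Nrp1*), and 1 held higher and 3 lower. The medians were -0.22 and -0.2. On the TPM scale the median of these genes was 0.09, against 0.3 for genes at 1 CPM or more. *Nrp1*, which encodes neuropilin-1, was at 478 and 368 CPM in WT versus 157 and 201 CPM in DKO (log2 fold change -1.24 ± 0.27, adjusted p = 0.0424). *Entpd1*, the ectoenzyme CD39 that degrades extracellular ATP, held without being called, at 58.4 and 59.7 CPM in WT versus 25.4 and 38.5 CPM in DKO (adjusted p = 0.154). *Il2ra*, the alpha chain of the interleukin-2 receptor, was at 511 and 494 CPM in WT versus 399 and 436 CPM in DKO (adjusted p = 0.414), and *Foxp3* at 165 and 153 CPM in WT versus 419 and 235 CPM in DKO (adjusted p = 0.0607). *Foxp3* passed with DESeq2's Wald test (adjusted p = 0.0186), with edgeR on the 4 Treg libraries alone (adjusted p = 0.0224) and without DKO replicate 2 (adjusted p = 0.00753), and in none of the other alternatives.

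Genes whose proteins the study followed by flow cytometry were mostly not called. *Icos* was at 356 and 335 CPM in WT versus 522 and 471 CPM in DKO (adjusted p = 0.586). *Pdcd1* was at 218 and 167 CPM in WT versus 274 and 187 CPM in DKO (adjusted p = 0.755), and *Itgae*, which encodes CD103, at 197 and 195 CPM in WT versus 312 and 201 CPM in DKO (adjusted p = 0.58). DKO replicate 2 lay within 1.5-fold of both WT libraries in these 3 genes. Of the homing and activation genes, *Ccr7* was at 368 and 381 CPM in WT versus 186 and 319 CPM in DKO (adjusted p = 0.342), *Cd44* at 281 and 249 CPM in WT versus 167 and 239 CPM in DKO (adjusted p = 0.355) and *Cd69* at 79.5 and 79.8 CPM in WT versus 58.6 and 74.3 CPM in DKO (adjusted p = 0.449).

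Effector and tissue Treg genes did not move as a block. Of 20 genes, 3 were called lower, *Il1rl1*, *Klrg1* and *Il9r*, and 1 higher, *Penk*, with medians of 0.19 and -0.01. *Klrg1*, an inhibitory lectin-like receptor of terminally differentiated cells, was at 81.1 and 72.5 CPM in WT versus 24.1 and 9.97 CPM in DKO (log2 fold change -2.17 ± 0.31, adjusted p = 0.00645). *Prdm1*, which encodes the effector regulator Blimp-1, held lower without being called, at 22.7 and 22.1 CPM in WT versus 13.3 and 8.94 CPM in DKO (adjusted p = 0.114). Among 19 genes of naive and resting T cells, 2 were called lower, *Tgfbr3* and *Ly6c1*, 0 higher, and the medians were -0.75 and -0.25. *Ly6c1* was at 53.4 and 70.1 CPM in WT versus 15.9 and 25 CPM in DKO (log2 fold change -1.6 ± 0.36, adjusted p = 0.0478). The median of the naive and resting list was -0.24 on the TPM scale.

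Cell cycle genes lay higher, and few passed the test one by one. Of 35 mitosis genes, 3 were called higher and 0 lower, 22 held higher, and the medians were 1.29 in DKO replicate 1 and 0.87 in replicate 2. All 35 had a positive log2 fold change. *Mki67*, the proliferation marker Ki-67, was at 1.61 and 1.25 CPM in WT versus 27.5 and 4.44 CPM in DKO (log2 fold change 3.48 ± 0.72, adjusted p = 0.0361). Its level in DKO replicate 1 was over 4 times that in replicate 2. *Kif23*, a kinesin of cytokinesis, was at 3 and 3.34 CPM in WT versus 12.7 and 7.24 CPM in DKO (log2 fold change 1.65 ± 0.35, adjusted p = 0.0388), and *Tpx2*, a spindle assembly factor, was at 6.07 and 6.33 CPM in WT versus 21.1 and 13.2 CPM in DKO (log2 fold change 1.47 ± 0.33, adjusted p = 0.0499). Of 30 replication genes, 0 were called and 7 held higher, with medians of 0.59 and 0.51, and 29 were positive. The numbers called with DESeq2's Wald test were 10 of the 35 mitosis genes and 2 of the 30 replication genes.

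Of 25 DNA repair and damage genes, 1 was called higher, *Rad54l*, an ATPase of homologous recombination, at 2 and 2.16 CPM in WT versus 8.19 and 7.78 CPM in DKO (log2 fold change 1.94 ± 0.41, adjusted p = 0.0417). All 25 had a positive log2 fold change, the medians were 0.94 in DKO replicate 1 and 0.36 in replicate 2, and the fitted median went from 0.72 to 0.45 once gene length was removed. DESeq2's Wald test called 3 of the 25 higher. By edgeR's quasi-likelihood test with no adjustment 11 had a p under 0.05, against 3345 of all 16357 genes. Of 25 cell cycle inhibitors and p53 targets, 4 were called higher and 0 lower (7 and 1 by DESeq2's Wald test), and 8 held higher, with medians of 0.37 and 0.36. *Sesn2*, a stress sensor that limits mTORC1, was at 8.61 and 8.21 CPM in WT versus 32.1 and 23.3 CPM in DKO (log2 fold change 1.72 ± 0.23, adjusted p = 0.0042). *Zmat3*, an RNA-binding p53 target, was at 35.3 and 36.7 CPM in WT versus 67.4 and 62.1 CPM in DKO (log2 fold change 0.85 ± 0.16, adjusted p = 0.0222). *Cdkn1a*, the inhibitor p21, was at 3.46 and 2.85 CPM in WT versus 8.7 and 10.8 CPM in DKO (log2 fold change 1.62 ± 0.34, adjusted p = 0.0372). The kinase gene *Hipk2* was at 9.45 and 7.87 CPM in WT versus 52.7 and 19.6 CPM in DKO (log2 fold change 2.06 ± 0.38, adjusted p = 0.0222). The replicates of each group were within 1.5-fold of each other in *Sesn2*, *Zmat3* and *Cdkn1a*, whereas those of *Hipk2* differed by over 2-fold in DKO. *Phlda3*, an inhibitor of Akt that p53 induces, held without being called, at 5.23 and 4.52 CPM in WT versus 11.6 and 13.7 CPM in DKO (adjusted p = 0.0574).

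Chaperones split in direction. The inducible Hsp70 genes *Hspa1a* and *Hspa1b* are near-identical copies, so reads cannot always be placed on one of them, and the authors' aligner reported at most 1 alignment of each read. The 250 bases before their RefSeq starts (GRCm38.p6, both on the minus strand, chr17:34972157-34972406 and chr17:34959239-34959488) are shown because they are nearly the same and hold the heat shock letters GAANNTTC (a palindrome, so equal on both strands), printed in capitals, 104 bases before the start in each.
Hspa1a: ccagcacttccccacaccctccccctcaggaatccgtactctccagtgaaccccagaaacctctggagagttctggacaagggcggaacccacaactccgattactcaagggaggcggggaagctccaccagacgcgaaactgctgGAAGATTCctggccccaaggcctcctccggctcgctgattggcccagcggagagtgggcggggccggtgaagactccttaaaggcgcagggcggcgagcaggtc
Hspa1b: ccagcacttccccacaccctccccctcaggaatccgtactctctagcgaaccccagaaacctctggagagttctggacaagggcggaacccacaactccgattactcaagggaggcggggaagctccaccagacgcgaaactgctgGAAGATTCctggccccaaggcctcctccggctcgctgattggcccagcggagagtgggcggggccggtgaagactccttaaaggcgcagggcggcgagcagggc
These letters were found in 6.69% of all 32851 promoters of this length. The stretches hold 14 and 15 CpG.

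*Hspa1a* was at 25.6 and 18.2 CPM in WT versus 3.15 and 3.48 CPM in DKO (log2 fold change -2.72 ± 0.54, adjusted p = 0.031), and *Hspa1b* at 31.1 and 19.8 CPM in WT versus 4.64 and 4.16 CPM in DKO (log2 fold change -2.52 ± 0.57, adjusted p = 0.0478). Both DKO values of each gene were under 5 CPM and both WT values above 18 CPM. The cochaperone *Dnajb1* fell with them, at 145 and 148 CPM in WT versus 75.9 and 99.4 CPM in DKO (log2 fold change -0.74 ± 0.17, adjusted p = 0.0469), though it did not hold. *Hsph1*, an exchange factor of Hsp70, rose, at 53.8 and 64 CPM in WT versus 117 and 116 CPM in DKO (log2 fold change 0.98 ± 0.16, adjusted p = 0.0131). The constitutive *Hspa8* was at 2286 and 2262 CPM in WT versus 2043 and 2733 CPM in DKO (adjusted p = 0.907) and overlapped between the groups. Of the 11 heat shock and dissociation stress genes listed, 3 were called lower and 1 higher. *Hspa1a* varied widely within the groups of mLN Treg cells, at 194, 269 and 47.3 CPM in WT versus 120, 3.88 and 0.839 CPM in DKO. It was not called there (adjusted p = 0.411 by edgeR's quasi-likelihood test). The part of cell handling in these values was not tested.

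Several groups of genes held few or no calls. At the shares of all genes tested, 1.14% higher and 0.605% lower, lists of this size would hold few calls as well. Low counts of calls therefore do not show that a list was unchanged. Of the genes of helper T cell programs, 1 of 21 for follicular helper cells (*Sostdc1*), 1 of 14 for Th1 (*Il18r1*) and 1 of 11 for Th2 (*Il1rl1*) were called, all lower, and 0 of 14 for Th17. DESeq2's Wald test called 2 follicular helper genes and 1 Th2 gene lower, 2 Th1 genes lower and 2 higher, and 1 Th17 gene higher. Of the 21 follicular helper genes 15 had a positive log2 fold change, and the medians were 0.59 in DKO replicate 1 and 0.14 in replicate 2. Of 21 co-inhibitory receptor genes 0 were called by edgeR and 1 by DESeq2's Wald test, higher, and *Havcr2*, which encodes Tim-3, held higher, at 1.46 and 2.92 CPM in WT versus 12.5 and 5.73 CPM in DKO (adjusted p = 0.0541). Among 39 interferon-stimulated genes, 22 glycolysis genes, 18 genes of the Bcl-2 family, 17 STAT and SOCS genes and 19 genes of DNA methylation, 0 were called in either direction by edgeR's quasi-likelihood test. With no adjustment 18 of 39, 4 of 22, 8 of 18, 7 of 17 and 8 of 19 had a p under 0.05, in that order, against 3345 of all 16357 genes. DESeq2's Wald test called 1 interferon-stimulated gene and 1 STAT or SOCS gene lower, and 4 genes of the Bcl-2 family and 2 of DNA methylation higher. All 3 Bcl2a1 genes tested, near-identical anti-apoptotic copies, held higher, with log2 fold changes of 1.1 (*Bcl2a1a*), 0.94 (*Bcl2a1b*) and 1.14 (*Bcl2a1d*) and adjusted p from 0.0631 to 0.0813. Of 54 genes of the respiratory chain, 0 were called and 0 held, 51 had a negative log2 fold change, and the medians were -0.44 in DKO replicate 1 and 0.03 in replicate 2. The fitted median of the respiratory chain list was -0.17, went to -0.09 with gene length removed, and was 0.14 on the TPM scale, where all genes lay at 0.3. Of 29 immediate early genes, 1 was called, *Myc*, at 56.6 and 58.5 CPM in WT versus 115 and 93.6 CPM in DKO (log2 fold change 0.86 ± 0.17, adjusted p = 0.0274).

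**Figure D2:**
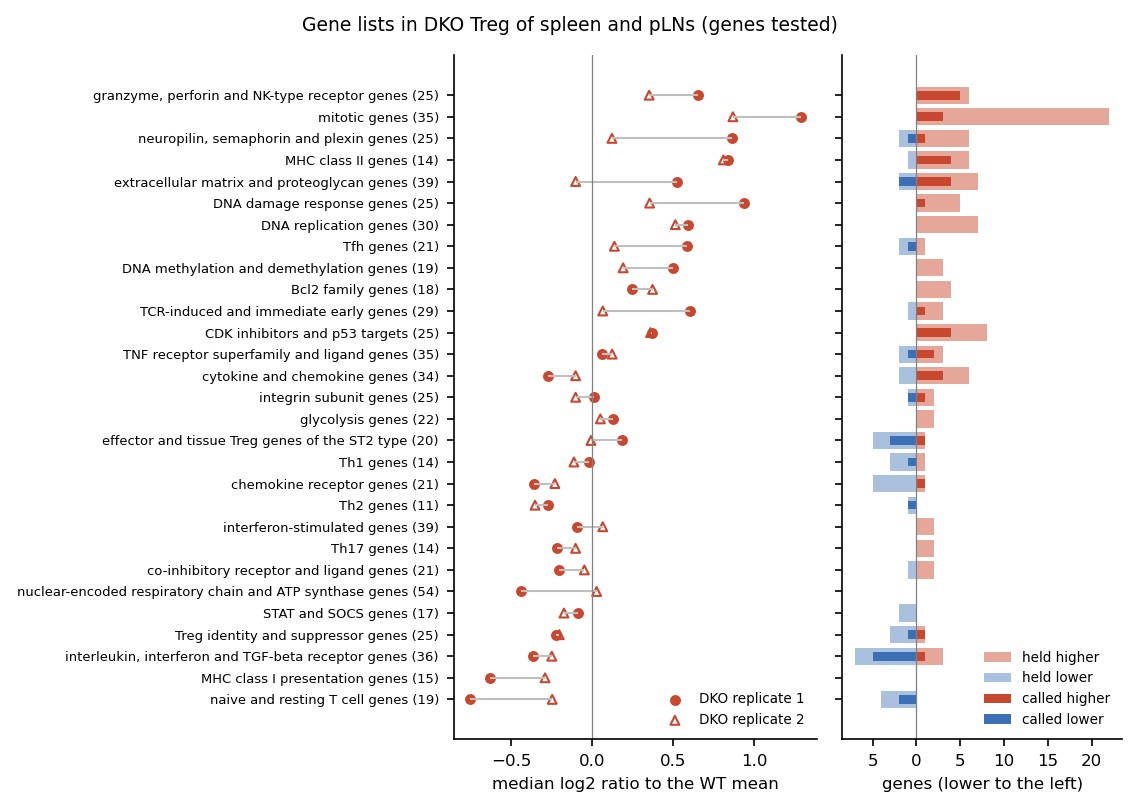
Left, median log2 ratio of each gene list to the WT mean, in DKO replicate 1 (circles) and DKO replicate 2 (open triangles), with the number of genes tested in brackets. A library under 3 counts was set to 3 counts, which alone gives the replicate 2 medians of the matrix, cytokine, integrin and Th17 lists and the replicate 1 median of the chemokine receptors. Right, number of genes of each list held (pale bars) and called (dark bars), higher to the right and lower to the left. The mitosis list holds 22 genes higher, and the respiratory chain list lies at -0.44 in replicate 1 and 0.03 in replicate 2.

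Among the most abundant transcripts, 17 called risers and 21 called fallers had a mean of 100 CPM or more in the higher group. Those named here were chosen after their values were seen. *Ogt*, which encodes the O-GlcNAc transferase known as a partner of TET proteins, was at 135 and 133 CPM in WT versus 83.3 and 86.9 CPM in DKO (log2 fold change -0.66 ± 0.15, adjusted p = 0.0488). The glucocorticoid receptor gene *Nr3c1* was at 169 and 165 CPM in WT versus 87.5 and 102 CPM in DKO (log2 fold change -0.81 ± 0.18, adjusted p = 0.0475), and *Cd6*, a co-receptor of the T cell surface, at 456 and 459 CPM in WT versus 288 and 253 CPM in DKO (log2 fold change -0.76 ± 0.16, adjusted p = 0.0408). These falls were under 2-fold, and the groups did not overlap, which the choice of called genes favours. *Pde2a*, a phosphodiesterase of cyclic nucleotides, fell further, at 133 and 132 CPM in WT versus 31.5 and 29.5 CPM in DKO (log2 fold change -2.12 ± 0.3, adjusted p = 0.00572). The dynein gene *Dnahc7b*, one of the 12 largest falls, was at 14.4 and 14.8 CPM in WT versus 0.916 and 1.91 CPM in DKO (log2 fold change -3.37 ± 0.54, adjusted p = 0.0127). The transcript *2210010C17Rik*, another of the 12, was at 27.6 and 25.8 CPM in WT versus 5.04 and 5.53 CPM in DKO (log2 fold change -2.34 ± 0.31, adjusted p = 0.00361). On the other side, *Stip1*, a cochaperone that links Hsp70 and Hsp90, was at 61.7 and 67.4 CPM in WT versus 122 and 107 CPM in DKO (log2 fold change 0.83 ± 0.15, adjusted p = 0.0209), and the kinase gene *Pim2* at 48.6 and 59.4 CPM in WT versus 97.7 and 107 CPM in DKO (log2 fold change 0.92 ± 0.19, adjusted p = 0.0394).

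Called genes were sometimes neighbours on the chromosome. Of 281 called genes with a single position in GENCODE M1 (NCBIM37), 13 neighbouring pairs lay within 100 kb of each other, and 10 pairs moved in the same direction, 7 higher and 3 lower. Among all called genes 65.3% were higher. Pairs were not counted over all genes tested, so these numbers do not show that called genes cluster. The pairs that rose were *H2-Ab1* and *H2-Aa*, *H2-Aa* and *H2-Eb1*, *Ccl3* and *Ccl4*, *Klrb1c* and *Klrb1b*, the kallikreins *Klk1b11* and *Klk1b27*, *Ankrd52* and *Myl6b*, and *Cacna1g* and *Acsf2*. Those that fell were *Il1rl1* and *Il18r1*, *Hspa1b* and *Hspa1a*, and *Cd6* and *Slc15a3*. Several of these pairs are members of the same gene family.

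The replicates of DKO Treg cells differed more than those of WT Treg cells. Among the 10918 genes that averaged 1 CPM or more over the 4 libraries, 789 (7.23%) differed at least 2-fold between the DKO replicates and 111 (1.02%) between the WT replicates. Of the 789 genes, 714 were higher in replicate 1. The change from WT was larger in replicate 1 for 152 of the 186 called risers and 75 of the 99 fallers. The DKO replicates lay within 1.5-fold of each other for 85 risers and 79 fallers, and differed at least 2-fold for 65 risers and 7 fallers.

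Among called genes with a mean of 10 CPM or more in DKO, the widest gaps with replicate 1 higher were in *Mki67*, *Igj*, *Fn1*, *Dscam* and *Ccl4*. *Igj*, the joining chain of immunoglobulins, was at 4.53 and 3.55 CPM in WT versus 88.4 and 15.4 CPM in DKO (log2 fold change 3.69 ± 0.8, adjusted p = 0.0432). Of the 6 plasma cell markers tested, 4 had a positive log2 fold change and 2 a negative one, with a fitted median of 0.49. That median was -0.09 without DKO replicate 1 and 0.7 without DKO replicate 2. Of the other plasma cell genes, *Xbp1* was at 138 and 139 CPM in WT versus 103 and 113 CPM in DKO and *Tnfrsf17* at or under 0.06 CPM. The part of plasma cells in the *Igj* values was not tested. *Dscam*, a cell adhesion gene of neurons, was at 2.46 and 1.25 CPM in WT versus 31.8 and 7.85 CPM in DKO (log2 fold change 3.42 ± 0.61, adjusted p = 0.0188). In both genes, as in *Mki67*, *Fn1* and *Ccl4*, replicate 2 still lay above both WT libraries. *Sdcbp2*, which encodes syntenin-2, had the widest gap the other way at that level, at 54.3 and 51 CPM in WT versus 6.01 and 15 CPM in DKO (log2 fold change -2.33 ± 0.38, adjusted p = 0.013).

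**Figure D3:**
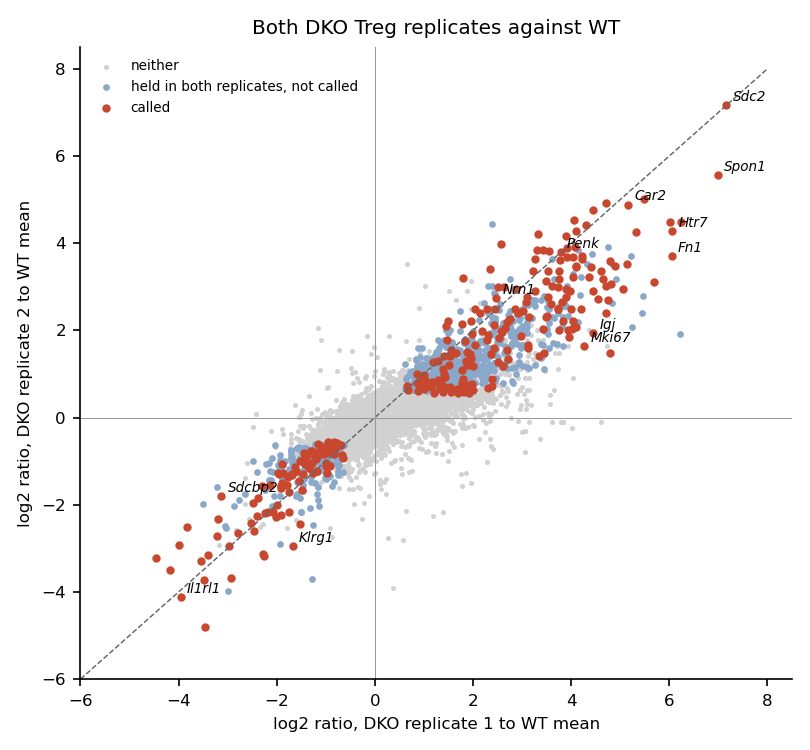
Log2 ratio of DKO replicate 1 (horizontal axis) and of DKO replicate 2 (vertical axis) to the WT mean, 1 point per gene at 1 CPM or more. Red points are called genes, blue points genes that held in both replicates without being called, and the dashed line marks equal change. Most red points on the right lie below the line, where replicate 1 changed more, as 152 of the 186 risers did.

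Gene length moved with the ratio in DKO replicate 1 and hardly in replicate 2. Counts divided by TPM give the length of each gene relative to the median gene. Over 5 equal bins of genes from shortest to longest, the median log2 ratio to WT was -0.3, -0.13, -0.03, 0.1 and 0.42 in DKO replicate 1, and between -0.02 and 0.03 in DKO replicate 2. The ratio of the WT replicates lay between -0.03 and 0.07. Called risers numbered 26, 29, 25, 41 and 56 over the bins and called fallers 16, 13, 21, 27 and 22. Removing the trend with length, an alternative chosen after seeing the data, left 272 of the 285 genes called, and *Penk*, *Car2*, *H2-Aa*, *Klrb1c*, *Il18r1* and *Il13ra1* were among those. The part of gene length in the values of single genes was not tested.

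**Figure D4:**
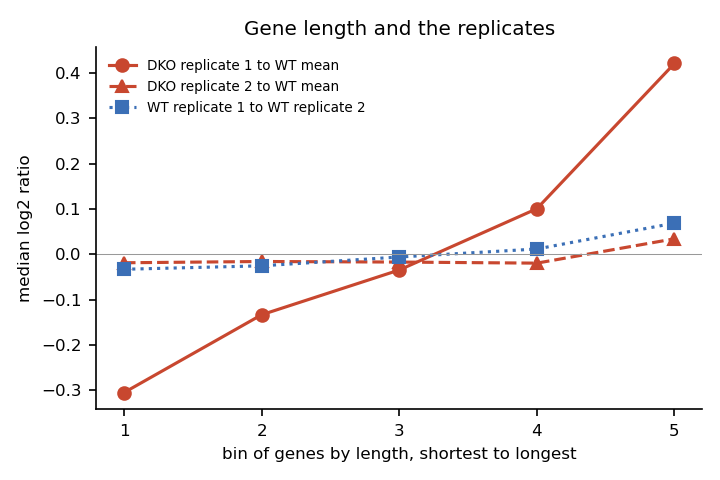
Median log2 ratio of the genes in each of 5 equal bins of gene length, from shortest to longest, for DKO replicate 1 (circles) and DKO replicate 2 (triangles) over the WT mean and for WT replicate 1 over WT replicate 2 (squares). The line of DKO replicate 1 climbs from -0.3 to 0.42, and the other lines stay between -0.03 and 0.07.

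The CD4+Foxp3- cells of the same tissues bear on which changes differed between the cell types. In the DKO mice these cells came from the same 2 littermates as the Treg cells, so the cell types share animals and are not independent of each other. In CD4+Foxp3- cells 126 genes were called higher and 8 lower. Of the 186 risers of Treg cells, 171 also had a positive log2 fold change in CD4+Foxp3- cells and 48 were called there. Of the 99 fallers, 83 were negative and 3 were called. The difference itself was tested as an interaction of genotype and cell type, and 1 gene of 16357 (0.00611%) passed, *Il1rl1*, with a difference of -4.59 ± 0.38, adjusted p = 0.000688. In CD4+Foxp3- cells *Il1rl1* was at 6.61 and 3.94 CPM in WT versus 6.09 and 9.56 CPM in DKO. With no adjustment, 905 genes had a p under 0.05.

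Among the genes called in Treg cells, the next 5 by interaction p did not pass. *F2r*, the thrombin receptor PAR1, was at 82.9 and 81.2 CPM in WT versus 40.9 and 37.8 CPM in DKO in Treg cells (log2 fold change -1.06 ± 0.14, adjusted p = 0.00361) and at 82 and 76.9 CPM in WT versus 106 and 108 CPM in DKO in CD4+Foxp3- cells, and the interaction was -1.49 ± 0.2, adjusted p = 0.0504. The DKO values lay below the WT values in Treg cells and above them in CD4+Foxp3- cells. *Cd79b*, which is a signalling chain of the B cell receptor, was at 28.8 and 26.2 CPM in WT versus 5.27 and 7.65 CPM in DKO in Treg cells (log2 fold change -2.09 ± 0.25, adjusted p = 0.00246) and at 2.51 and 2.33 CPM in WT versus 3.89 and 3.48 CPM in DKO in CD4+Foxp3- cells, and the interaction was -2.7 ± 0.37, adjusted p = 0.0526. *Klrb1b*, described above by its counts in Treg cells, was at 7.98 and 5.71 CPM in WT versus 9.42 and 13.6 CPM in DKO in CD4+Foxp3- cells (adjusted p of the interaction 0.0719). *Car2* was at 8.89 and 7.88 CPM in WT versus 12.7 and 37 CPM in DKO in CD4+Foxp3- cells, and the interaction was 3.46 ± 0.52, adjusted p = 0.0719. *Kcnk5*, a potassium channel gene, was at 9.68 and 10.1 CPM in WT versus 2.92 and 2.18 CPM in DKO in Treg cells (log2 fold change -1.95 ± 0.29, adjusted p = 0.00846) and at 11.1 and 10.8 CPM in WT versus 21.5 and 13.1 CPM in DKO in CD4+Foxp3- cells, and the interaction was -2.61 ± 0.4, adjusted p = 0.0719. A further pair of genes was chosen after their values were seen. *Penk* was at 27.2 and 9.08 CPM in WT versus 142 and 109.8 CPM in DKO in CD4+Foxp3- cells, and the interaction was 1.0 ± 0.5, adjusted p = 0.923. *Klrb1c* was at 95.2 and 57.5 CPM in WT versus 209 and 96.8 CPM in DKO there, and the interaction was 2.88 ± 0.47, adjusted p = 0.117.

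Treg cells of the mLN give the same contrast in separate samples, with 3 replicates of each genotype and a table of their own. There 1426 of 16784 genes (8.5%) were called higher and 575 (3.43%) lower. Of the 186 risers, 185 had a value in mLN, 180 were positive and 130 were called, and the median log2 fold change was 2.75. Of the 99 fallers, 94 were negative and 62 were called, with a median of -1.17. The tissues were not tested against each other, since their tables were made separately. *Car2* was at 3.94, 2.48 and 3.15 CPM in WT versus 119.6, 20.2 and 102 CPM in DKO in mLN (log2 fold change 4.65 ± 0.95, adjusted p = 0.0048), and *Klrb1c* at 6.41, 8.19 and 5.02 CPM in WT versus 155, 72.3 and 110.0 CPM in DKO (log2 fold change 4.09 ± 0.51, adjusted p = 0.000278). *Penk* was at 63.4, 54.5 and 50.4 CPM in WT versus 429.9, 903 and 307 CPM in DKO (log2 fold change 3.28 ± 0.44, adjusted p = 0.000431). In each of these 3 genes all DKO libraries were above all WT libraries.

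The cell cycle lists held more calls in mLN. Of the mitosis genes 34 of 35 were called higher, and of the replication genes 24 of 30, against 3 and 0 in spleen and pLNs. Cytokine receptors were called lower for 13 of 36 and higher for 4. For the class II genes it was 6 higher and 1 lower of 14, and for Treg identity genes 2 higher and 10 lower of 25. The respiratory chain had 0 called genes of 54 in both. Shares of calls are to be read against 8.5% and 3.43% in mLN and 1.14% and 0.605% in spleen and pLNs.

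A few genes went different ways. *S100a4*, a calcium-binding protein of activated and memory T cells, was at 153 and 172 CPM in WT versus 91.8 and 91.9 CPM in DKO in spleen and pLNs (log2 fold change -0.83 ± 0.15, adjusted p = 0.0184) and at 54.8, 37.5 and 43.2 CPM in WT versus 145, 163 and 128 CPM in DKO in mLN (log2 fold change 1.69 ± 0.2, adjusted p = 0.000234). Neither contrast had overlapping groups, which the choice of a gene called in both favours. *Gm3002*, a predicted gene, was called higher in spleen and pLNs, with a log2 fold change of 1.4, and lower in mLN, at -1.05. *Sostdc1*, an antagonist of bone morphogenetic proteins, was at 27 and 18.2 CPM in WT versus 1.03 and 0.137 CPM in DKO (log2 fold change -5.18 ± 0.95, adjusted p = 0.0221) in spleen and pLNs and at 7.07, 4.88 and 4.53 CPM in WT versus 32.7, 1.15 and 11.3 CPM in DKO in mLN (log2 fold change 1.45 ± 0.95, adjusted p = 0.322). The mLN groups overlapped. *Ptpn5*, a tyrosine phosphatase, was at 23.7 and 16.1 CPM in WT versus 1.77 and 1.5 CPM in DKO (log2 fold change -3.59 ± 0.76, adjusted p = 0.0396) against 4.11, 2.73 and 2.56 CPM in WT versus 12.1, 3.02 and 7.89 CPM in DKO in mLN (log2 fold change 1.29 ± 0.45, adjusted p = 0.0624).

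**Figure D5:**
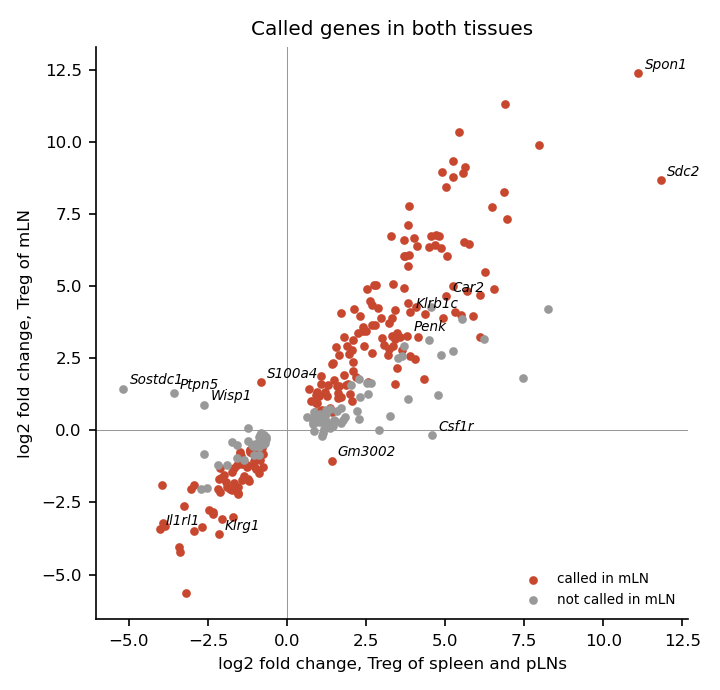
Log2 fold change of DKO over WT Treg cells in spleen and pLNs (horizontal axis) and in mLN (vertical axis), 1 point per gene called in spleen and pLNs with a value in mLN. Red points were also called in mLN and grey points were not. The tables were made separately, so the figure sets the values side by side, and *S100a4* and *Gm3002* are the red points in opposite quadrants.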

How the data were processed

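RNA sequencing libraries of sorted mouse T cells were compared, 2 biological replicates per genotype, grouped by the submitters' titles. The authors made stranded single-end libraries, used bcl2fastq 2.20.0.442 and TopHat2 2.1.1 with the mm9 genome, reporting at most 1 alignment per read, and the deposited counts are strand-specific reads per RefSeq gene from featureCounts (Subread 1.4.3-p1), not normalized. How the deposited TPM were calculated is not given in the sources used here. Of 16740 genes, the 16357 with at least 1 count were tested with edgeR 4.0.16 (quasi-likelihood test, TMM, Benjamini-Hochberg adjustment, R 4.3.3), with the 8 libraries of spleen and pLNs in 1 fit of 4 groups. The 12 mLN libraries were fitted separately, and symbols of the tables were paired through RefSeq synonyms. The workflow was tested on simulated data. The biological coefficient of variation was 21.6%, and 3 counts corresponded to 0.172 to 0.241 CPM. Where WT had 0 counts, the fold is a lower bound against 3 counts. Where it had 1 to 3, the ratio of summed counts has an exact 95% interval. Both cover counting error only.

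The genes, gene lists and the comparison were chosen with earlier results of these data known, so list counts and medians are descriptions. A library under 3 counts was set to 3 counts in the medians per replicate. Genes were named when they were among the 12 largest rises or falls, at 10 CPM or more and held, when they were called members of a list, had the widest gap between DKO replicates or the lowest interaction p, or encode proteins the study measured, and markers of other cell types were named by level. Not every such gene is named, and uncalled list members, flanking genes and markers near 0 were chosen after their values were seen. Neighbours used GENCODE M1 on NCBIM37, and promoters RefSeq on GRCm38.p6. Alternatives were DESeq2 1.42.0 (Wald test, size factors), the 4 Treg libraries alone, filterByExpr, a robust prior, no fold minimum, a replicate block, loess removal of gene length and leaving out each Treg library.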

Additional observations from a re-analysis of the deposited data

Results flagged for a closer look

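Effects of the same genotype contrast in other cells stood out for 7 of the genes called in Treg cells of spleen and pLNs. For *Il1rl1* the difference of the log2 fold changes between Treg and CD4+Foxp3- cells was -4.59 ± 0.38, adjusted p = 0.000688, by edgeR's quasi-likelihood test of the interaction. For the others every DKO library lay on one side of WT in Treg cells and on the other side in the compared cells. In CD4+Foxp3- cells the log2 fold change was 0.61 for *Cd79b*, 0.43 for *F2r*, 0.67 for *Kcnk5*, 0.12 for *Lipo1* and 0.35 for *S100a4*. Their interactions did not pass, with adjusted p of 0.0526, 0.0504, 0.0719, 0.438 and 0.173. *Lipo1* hardly changed in CD4+Foxp3- cells, at 28.1 and 23.9 CPM in WT versus 28.3 and 28.2 CPM in DKO (adjusted p = 0.905 by edgeR's quasi-likelihood test). In Treg cells of the mLN the log2 fold change was 1.69 for *S100a4* and -1.05 for *Gm3002*, against -0.83 and 1.4 in spleen and pLNs. The difference between the tissues was not tested. Groups of 2 and 3 libraries were too small for a test of single outlying samples.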

How the results depend on the processing

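The number of genes called in Treg cells of spleen and pLNs, 285, depended on the test, the filter and the libraries used. It was 663 with DESeq2's Wald test, 1256 with edgeR on the 4 Treg libraries alone, 114 with a robust prior, 24 with edgeR's filterByExpr (13 higher and 11 lower) and 454 with gene length removed, an alternative chosen after seeing the data. Leaving out 1 library gave between 4 and 1696, and the lone library was then assumed to vary like the other groups: 4 without WT replicate 1 or WT replicate 2, 11 without DKO replicate 1 and 1696 without DKO replicate 2. It was 293 with DESeq2's size factors and 285 with no fold minimum. Genes that held numbered 1043, 490 at 2-fold, 1379 with no minimum CPM and between 1319 and 3679 with a library left out (3679 without DKO replicate 2). The cause of these shifts was not tested. The interaction gave 1 gene, and 0 with filterByExpr, where 577 genes had an unadjusted p under 0.05 by edgeR's quasi-likelihood test. In mLN the count went from 2001 to 2072 with DESeq2.

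With a replicate block over the 4 groups 296 genes were called, 227 of them among the 285, the interaction gave 1 gene, and mLN gave 2055. The named genes that missed the threshold with the block were *Gzma*, *Hspa1a*, *Hspa1b*, *Nrp1*, *Rad54l*, *Sh2d1b1*, *Tnfsf13b*, *Tnfsf4*, *Xcl1* and *Xist*, with adjusted p from 0.0506 to 0.0812. The labels give the groups the same replicate numbers but do not say that a number marks a shared mouse or day. By the study's methods, DKO Treg and DKO CD4+Foxp3- cells came from the same 2 littermates. The deviations of same-numbered libraries correlated across genes at 0.08 between WT and DKO Treg cells and at 0.25 between DKO Treg and DKO CD4+Foxp3- cells, over 2 numbers only.

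Of 73 named genes called in Treg cells, each kept its direction in each alternative, and 14 stayed called with filterByExpr, 32 with the robust prior, 63 with the replicate block and 69 with gene length removed. Without WT replicate 1 or WT replicate 2, 4 of the 73 stayed called, without DKO replicate 1 it was 7 and without DKO replicate 2 it was 63. At 3 counts per library the depth sets a limit of 0.172 to 0.241 CPM, under which a gene cannot be told from absent.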
